A study of Mus musculus with 12 samples.

Results

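The genes described here are 37 genes that repair broken DNA: mediators of homologous recombination, nucleases and helicases that process broken ends, damage kinases and their partners, end joining factors and members of the Fanconi anaemia pathway. They were listed by name and function, and no peak value enters the rule, but the list was made with earlier results of these data known. All 37 were found among 21887 protein-coding genes of RefSeq assembly GRCm38.p6. An S9.6 peak was assigned to a gene when it overlapped the gene body with 1 kb on both sides by at least 1 bp. The data were 2 lists of R-loop peaks, 1 from HEPA1-6 cells, a mouse hepatoma line, and 1 labelled as liver of C57/Bl6 mice. Both sources are labelled wild type and untreated, and no age is given for the mice. Per the labels, each source gave 2 immunoprecipitates with the hybrid-binding antibody S9.6, 2 immunoprecipitates treated with RNase H1, which degrades the RNA of a hybrid, and 2 inputs. Each list holds peaks of a merged immunoprecipitate against an input, so neither a replicate spread nor a test between the sources can be given. The libraries behind the lists were not analysed here 1 by 1, nor were the RNase H1 treated ones, and the depth is unknown.

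An R-loop is a stretch in which RNA pairs with one DNA strand and leaves the other unpaired, and it forms mostly over transcribed genes. Double-strand breaks are rejoined either by end joining, which seals the ends directly, or by homologous recombination, which cuts back the ends and copies an intact template. Several of these proteins also act at replication forks that meet an R-loop, and homologous recombination is the route by which a donor carried by an adeno-associated virus vector is placed at a matching locus. The peaks described here lie on the genes of these proteins and do not measure the proteins.

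The HEPA1-6 list held 28717 peaks with scores from 10 to 29098 (median 21), and the liver-labelled list 14908 peaks with scores from 10 to 15543 (median 22). The scale of the score is not stated, so a score is set only against its own list, as the rank in percent counted from the top. Set beside the label, 6 of 20 hepatocyte marker genes (30.0%) held a liver-labelled peak (Alb, Apoa2, Trf, Hpx, Hnf4a and Fah), close to the 29.7% of all protein-coding genes, and 6 of 8 proliferation marker genes did. The HEPA1-6 counts were 6 of 20 (30.0%) and 7 of 8, where the background was 42.0%. Of 12 markers of other liver cells, 1 (Cd68) held a peak in each list, and Ptprc, Adgre1, Clec4f, Pecam1, Stab2 and Krt19 held none. The second list is called liver-labelled, after its label, since peak lists do not measure how much of a marker is expressed. Whether its proliferation gene peaks bear on the repair genes was not tested.

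In HEPA1-6, 29 of the 37 repair genes (78.4%, 95% Wilson interval 62.8 to 88.6%) held a peak, against 42.0% of all protein-coding genes. In the liver-labelled list, 16 (43.2%, 28.7 to 59.1%) held one, against 29.7%, a share that lies inside that interval. All 16 had a HEPA1-6 peak too (100%, against 93.6% of protein-coding genes with a liver-labelled peak), so that 13 genes had a peak in HEPA1-6 only and 0 in the liver-labelled list only. The backgrounds for these classes were 14.2% and 1.89%. No peak was called in either list at the remaining 8 genes (21.6%, against 56.1% of all protein-coding genes). Among genes with a HEPA1-6 peak, 16 of 29 repair genes (55.2%, 37.5 to 71.6%) had a liver-labelled peak as well, and 66.1% of all such protein-coding genes did. The intervals cover counting error over genes only.

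Repair genes are long, with a median of 52.4 kb (7.66 to 551 kb) against 17.2 kb for all protein-coding genes, and a long gene offers more positions to a peak. Among genes of 30 to 100 kb, 16 of 20 repair genes held a HEPA1-6 peak, against 51.5% of all genes of that class. Among genes of 10 to 30 kb these figures were 7 of 10 and 49.0%, and above 100 kb they were 5 of 6 and 42.3%. Lig4, the only repair gene under 10 kb, held a HEPA1-6 peak, as did 30.1% of its class, and no liver-labelled one (21.7%). Liver-labelled peaks lay at 4 of 10 genes of 10 to 30 kb (33.0%), 9 of 20 of 30 to 100 kb (35.4%) and 3 of 6 above 100 kb (34.7%). Weighting the share of each length class by the number of repair genes in it gave 18.0 genes (48.8%) for HEPA1-6, below the 29 observed and below the interval. For the liver-labelled list the same weighting gave 12.7 genes (34.3%), which lies inside the interval around the 16 observed.

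**Figure D1:**
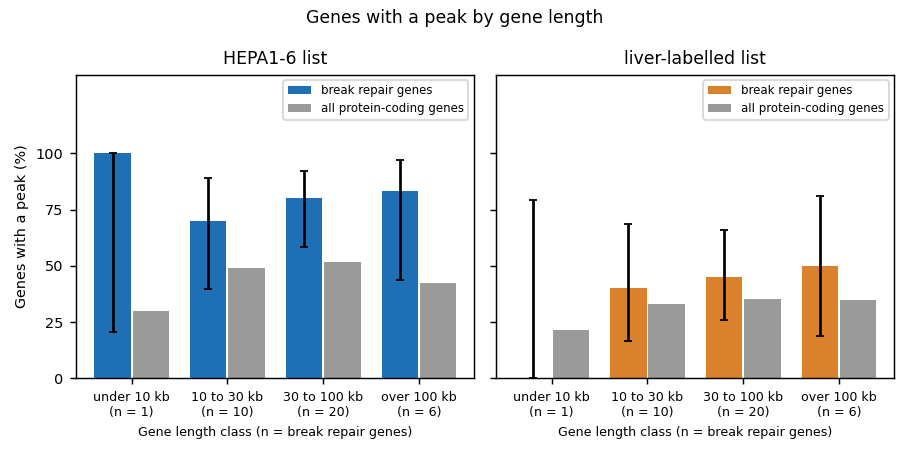
Percentage of genes with a peak (vertical axis) in 4 classes of gene length (horizontal axis), for the HEPA1-6 list (left) and the liver-labelled list (right). Coloured bars are the 37 repair genes with 95% Wilson intervals, grey bars all protein-coding genes. In HEPA1-6, repair genes of 30 to 100 kb stand at 80.0% against 51.5%, and in the liver-labelled list at 45.0% against 35.4%.

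In the median, the best peak of a repair gene ranked lower than that of all genes with a peak. The best-scoring HEPA1-6 peak of a repair gene had a median rank of 36.8% over the 29 genes, against 20.5% over all protein-coding genes with a peak. In the liver-labelled list these medians were 40.3% and 31.3%. No interval is printed for these medians and no test was made, so a clear difference from the background is not claimed. Bard1 (7.50%), Lig3 (8.72%) and Atm (9.43%) reached the top 10% of HEPA1-6, which is 8.11% of the repair genes, while 12.8% of protein-coding genes did. In the liver-labelled list 0 of the 37 reached the top 10%, where the background was 5.79%. The Wilson interval of 0 of 37 genes runs to 9.41% and holds that background. With counts this small, neither list shows a clear difference from the background in its top 10%. Peaks also covered a smaller share of the gene body. That share is divided by gene length, with medians of 52.4 kb for repair genes and 17.2 kb for all protein-coding genes. It was not compared within length classes. The peaks themselves were not narrower, with a median width of 1396 bp against 1137 bp in HEPA1-6 and 1028 bp against 958 bp in the liver-labelled list. The median share of the gene body under HEPA1-6 peaks was 5.29%, against 15.4% over all protein-coding genes with a peak, and under liver-labelled peaks 3.89%, against 5.84%. Counted peak by peak, the 73 HEPA1-6 peaks at repair genes had the same median rank as all peaks at protein-coding genes, 48.4%, and the 33 liver-labelled peaks had a median rank of 56.1%, against 48.3%.

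**Figure D2:**
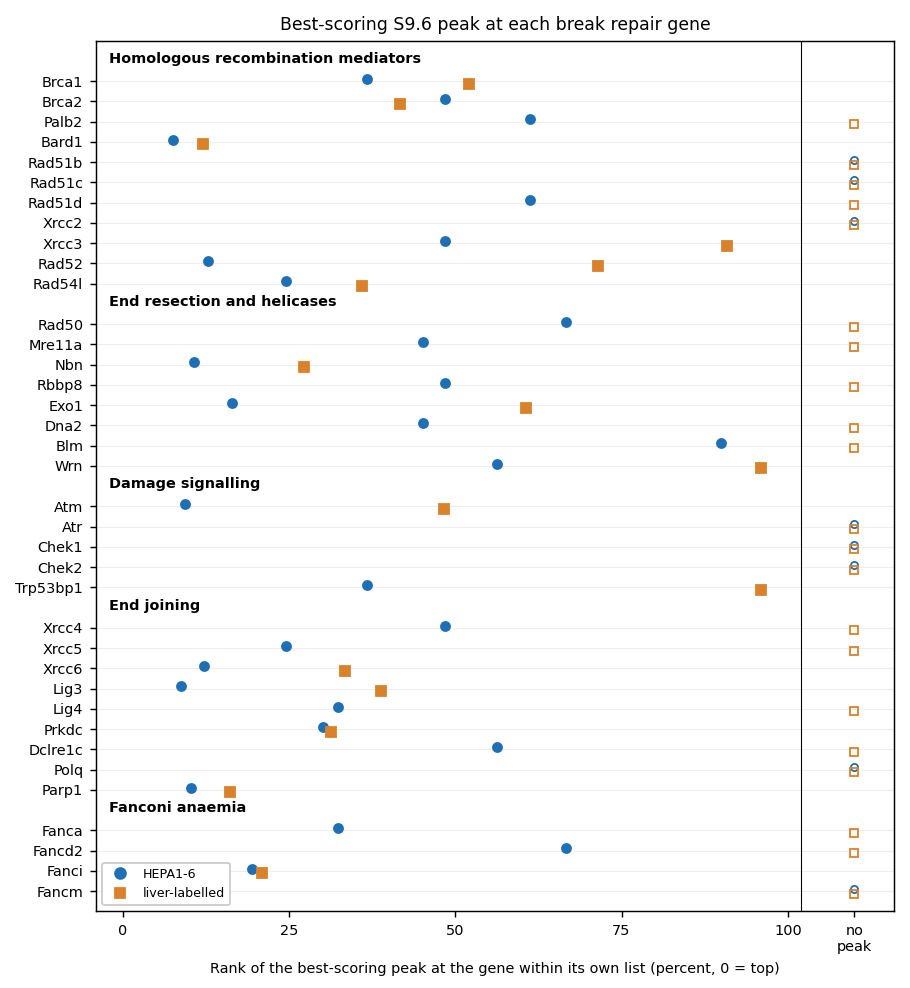
Rank of the best-scoring peak at each of the 37 repair genes within its own list (horizontal axis, percent, 0 is the top of the list), by role. Circles are HEPA1-6 and squares the liver-labelled list, and open symbols at the right mark genes without a called peak. Bard1, Lig3 and Atm lie below 10% in HEPA1-6, and 8 genes are open in both lists.

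Start sites were taken from RefSeq promoter windows of GRCm38.p6, which run from 250 bases before to 50 bases after a start and were matched for 28 of the 37 genes. Rad51d, Xrcc2, Rad50, Nbn, Rbbp8, Exo1, Wrn, Prkdc and Fancd2 have no entry. A HEPA1-6 peak overlapped the window of 5 of the 28 genes (17.9%, background 20.4%), and a liver-labelled peak that of 5 as well (17.9%, background 13.5%). Both did so at 4 genes, Parp1, Xrcc6, Atm and Brca1, whose windows are printed here beside those of Rad51b and Rad51c, which held no peak. They lie at chr1:180568641-180568940 (Parp1, plus strand), chr15:82016119-82016418 (Xrcc6, plus), chr9:53536622-53536921 (Atm, minus), chr11:101551906-101552205 (Brca1, minus), chr12:79297032-79297331 (Rad51b, plus) and chr11:87404457-87404756 (Rad51c, minus). Each is given 5′ to 3′ on the strand of the gene, with runs of 4 or more G or 4 or more C in capitals, because clustered G on the displaced strand is a known feature of R-loop starts. A run of C printed here is a run of G on the other strand. The peaks of both lists carried the strand of the gene over the Parp1 and Atm windows and the opposite strand over the Brca1 window. Over the Xrcc6 window, the HEPA1-6 peak carried the opposite strand and the liver-labelled peak that of the gene.
Parp1: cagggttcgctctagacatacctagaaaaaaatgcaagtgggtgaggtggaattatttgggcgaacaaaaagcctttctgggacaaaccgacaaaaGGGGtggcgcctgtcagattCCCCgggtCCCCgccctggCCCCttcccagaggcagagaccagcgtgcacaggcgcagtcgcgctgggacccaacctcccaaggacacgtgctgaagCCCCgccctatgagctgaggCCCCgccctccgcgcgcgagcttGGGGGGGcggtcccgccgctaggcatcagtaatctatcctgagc
Xrcc6: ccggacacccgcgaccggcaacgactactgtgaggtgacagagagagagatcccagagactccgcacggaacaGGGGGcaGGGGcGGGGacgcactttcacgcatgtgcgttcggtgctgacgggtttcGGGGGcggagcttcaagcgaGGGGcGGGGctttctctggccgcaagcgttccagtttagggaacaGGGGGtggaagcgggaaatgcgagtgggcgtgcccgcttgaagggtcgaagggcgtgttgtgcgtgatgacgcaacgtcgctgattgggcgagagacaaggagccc
Atm: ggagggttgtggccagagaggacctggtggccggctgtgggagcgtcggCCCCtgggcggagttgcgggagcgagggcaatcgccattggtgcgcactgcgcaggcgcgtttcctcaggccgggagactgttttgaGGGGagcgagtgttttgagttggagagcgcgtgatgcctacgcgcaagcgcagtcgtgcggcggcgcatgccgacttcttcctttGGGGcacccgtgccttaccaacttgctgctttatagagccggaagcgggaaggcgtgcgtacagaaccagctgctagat
Brca1: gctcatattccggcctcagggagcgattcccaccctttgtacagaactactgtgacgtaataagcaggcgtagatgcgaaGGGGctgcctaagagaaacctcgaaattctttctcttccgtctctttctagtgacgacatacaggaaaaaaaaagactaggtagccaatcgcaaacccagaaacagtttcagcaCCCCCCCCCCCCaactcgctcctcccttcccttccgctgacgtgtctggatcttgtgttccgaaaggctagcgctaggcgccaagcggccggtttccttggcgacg
Rad51b: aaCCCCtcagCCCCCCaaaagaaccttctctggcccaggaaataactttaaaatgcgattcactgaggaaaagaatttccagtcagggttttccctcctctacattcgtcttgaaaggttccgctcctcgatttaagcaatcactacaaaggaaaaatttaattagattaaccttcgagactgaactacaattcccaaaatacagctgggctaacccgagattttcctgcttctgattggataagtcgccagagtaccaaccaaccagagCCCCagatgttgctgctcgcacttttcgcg
Rad51c: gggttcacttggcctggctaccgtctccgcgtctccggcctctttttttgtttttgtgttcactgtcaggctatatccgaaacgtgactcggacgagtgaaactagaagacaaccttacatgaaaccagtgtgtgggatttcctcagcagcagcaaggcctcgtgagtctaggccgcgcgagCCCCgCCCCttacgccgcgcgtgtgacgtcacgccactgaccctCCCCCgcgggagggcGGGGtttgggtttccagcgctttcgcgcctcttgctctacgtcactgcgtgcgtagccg
The Xrcc6 window held 7 runs of G and 0 of C, the Parp1 window 2 of G and 5 of C, the Atm window 2 and 1, and the Brca1 window 1 and 1. Rad51b, without a peak, held 0 and 3, and Rad51c 1 and 3. At least 1 such run (GGGG or CCCC) was present in 27 of the 28 repair gene windows (96.4%), in 87.3% of all protein-coding promoter windows and in 95.2% of those of genes with a HEPA1-6 peak. These are matches of letters and say nothing of a structure.

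The promoter windows of repair genes had a high CpG ratio whether or not the gene held a peak, which did not hold for the G+C share. The median G+C share was 61.3% over the 21 repair genes with a HEPA1-6 peak and 56.7% over the 7 without a peak in either list. Over protein-coding genes it was 61.3% with a HEPA1-6 peak, 51.3% without a peak in either list and 56.3% over all. The repair genes without a peak were thus close to all protein-coding genes. The ratio of observed to expected CpG was 0.901 and 0.896 in these 2 classes of repair genes. It was 0.787 and 0.308 in the same classes of protein-coding genes, and 0.576 over all. The skew of G over C, as the difference divided by the sum, ranged from -0.23 (Rad51b) to 0.26 (Xrcc6), with a median of 0.00 over the repair genes and 0.01 over all.

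Over all genes with a promoter entry, with or without a peak, the share of repair genes with a peak at the start site was near the background. Among genes with a HEPA1-6 peak it was lower, at 6 of 21 repair genes against 4525 of 7416 protein-coding genes. In the liver-labelled list these counts were 5 of 12 and 3135 of 5209. No interval or test was made for these counts. Within 1 kb of a start, 6 of 28 genes had a HEPA1-6 peak (21.4%, interval 10.2 to 39.5%, background 25.9%), namely Brca1, Atm, Xrcc4, Xrcc6, Lig4 and Parp1. The liver-labelled count was 5 (17.9%, background 17.9%), with Trp53bp1 in place of Xrcc4 and Lig4. Within 1 kb of the transcript end, 10 of 28 genes had a HEPA1-6 peak (35.7%, 20.7 to 54.2%, background 23.8%) and 5 a liver-labelled peak (17.9%, 7.88 to 35.6%, background 11.8%). Parp1 and Xrcc6 had peaks at both boundaries in each list (7.14%, against 15.1% for HEPA1-6 and 6.49% for the liver-labelled peaks). At 7 genes (25.0%, 12.7 to 43.4%) HEPA1-6 peaks lay at neither boundary, against 7.84% of all protein-coding genes. These were Brca2, Palb2, Bard1, Mre11a, Blm, Xrcc5 and Fanca. In the liver-labelled list this held for 4 genes (14.3%, 5.70 to 31.5%, background 6.59%): Brca2, Bard1, Rad52 and Rad54l. These shares, and those by length below, also count genes without a peak. A HEPA1-6 peak at any position was held by 21 of 28 repair genes and 7416 of 17492 protein-coding genes. Among genes with a peak, peaks lay at neither boundary at 7 of 21 against 1371 of 7416 in HEPA1-6. The liver-labelled counts were 4 of 12 against 1153 of 5209. By length, HEPA1-6 peaks at neither boundary were found at 1 of 8 repair genes of 10 to 30 kb (background 8.58%), 6 of 16 of 30 to 100 kb (13.2%) and 0 of 3 above 100 kb (15.3%). The liver-labelled counts were 2 of 8 (6.78%), 2 of 16 (9.67%) and 0 of 3 (17.4%).

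**Figure D3:**
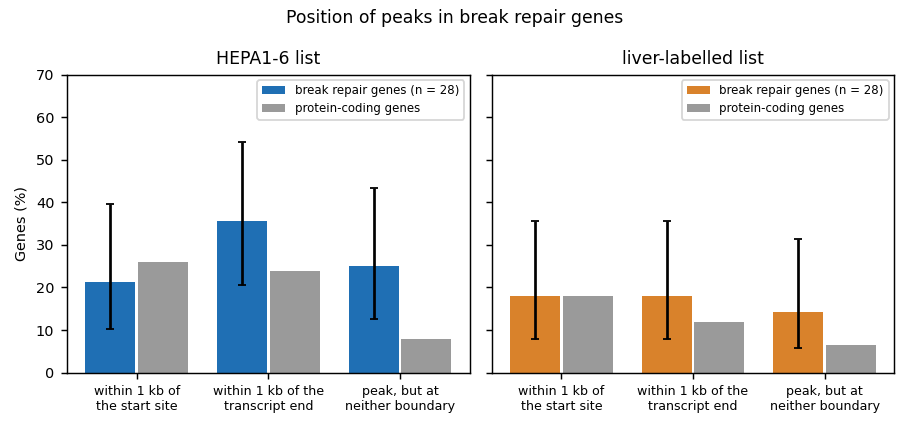
Percentage of genes with a peak within 1 kb of the start site, within 1 kb of the transcript end, or at neither boundary (horizontal axis), for both lists. Coloured bars are the 28 repair genes with a promoter entry and their 95% Wilson intervals, grey bars all protein-coding genes with an entry. Both sets include genes without a peak. In HEPA1-6 the class at neither boundary stands at 25.0% against 7.84%, and the start site class at 21.4% against 25.9%.

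Of the 11 mediators of homologous recombination, 8 held a HEPA1-6 peak and 6 a peak in both lists. Bard1 (NCBI Gene 12021, chromosome 1, 71027535 to 71103141, minus strand), the partner of Brca1 in a ubiquitin ligase, had the lowest sum of ranks of all repair genes. Its 5 HEPA1-6 peaks scored 12, 56, 12, 32 and 17 in genomic order, and its 2 liver-labelled peaks 43 and 13. The HEPA1-6 peak with score 56 (71086660 to 71087328) lay 15.8 to 16.5 kb from the 5′ boundary and had no counterpart, while the liver-labelled peak with score 43 (71095999 to 71096832, rank 12.1%) lay inside a HEPA1-6 peak of score 32. All 7 peaks were on the strand of the gene and touched no other gene. The 2 lists thus put their best Bard1 peak at different places.

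At Brca1 (NCBI Gene 12189), which directs recombination at broken ends, the only liver-labelled peak (chromosome 11, 101551113 to 101552167, score 21) straddled the start site together with a HEPA1-6 peak (101551113 to 101552300, score 25). Both carried the strand opposite to Brca1, which is that of Nbr1, a neighbour that starts next to it in the other direction. The 3 further HEPA1-6 peaks lay inside the gene on its own strand, with scores of 20, 24 and 14. Brca2, which loads the recombinase onto single-stranded DNA, held 2 peaks in each list, at 5.43 to 6.82 kb and 40.7 to 41.6 kb in HEPA1-6. Their HEPA1-6 scores were 21 and 13, their liver-labelled scores 24 and 14, and each pair shared 1 edge to the base. Brca2 thus had the same number of peaks at nearly the same places in both lists, with scores near or below the list medians.

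Rad54l, a motor protein that helps the strand exchange, is 29.4 kb long, and Lrrc41 overlaps it from 26.6 kb on the opposite strand. Its HEPA1-6 peaks lay at 24.6 to 28.1 kb and at the transcript end. The liver-labelled peak, at 24.5 to 25.8 kb, reached only the 1 kb flank of Lrrc41 and lay at neither boundary. Its HEPA1-6 peaks scored 31 and 15, and its liver-labelled peak 26 (rank 36.0%). Rad52, an annealing protein, held a HEPA1-6 peak of 8906 bp over its end (score 43, rank 12.8%) and 2 liver-labelled peaks inside it with scores of 17 and 16. Xrcc3, a paralogue of the recombinase, held 1 peak in each list near its end (scores 21 and 14), both touching Klc1. Palb2, which joins Brca1 to Brca2, and the paralogue Rad51d each held a single HEPA1-6 peak with a score of 18 and no liver-labelled peak. The paralogues Rad51b, Rad51c and Xrcc2 held none in either list, although Rad51b is the longest of the 37 genes at 551 kb.

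All 8 genes for end resection and helicases held a HEPA1-6 peak, and 3 of them a liver-labelled one. Nbn (NCBI Gene 27354, chromosome 4, 15957587 to 15992589), a subunit of the complex that senses broken ends, ranked highest. Its HEPA1-6 peak (15957576 to 15959739, score 47, rank 10.7%) and its liver-labelled peak (15957576 to 15958786, score 30, rank 27.2%) began at the same base, at the lower boundary of the gene, and touched no other gene. The other subunits, Rad50 and Mre11a, held 3 and 2 peaks in HEPA1-6 only, with best scores of 17 and 22. Among the 3 subunits of the complex, only Nbn therefore had a liver-labelled peak.

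Exo1, an exonuclease that cuts back ends, held 6 HEPA1-6 peaks that covered 45.8% of the gene, with scores of 33, 32, 20, 17, 22 and 38 in genomic order. Its 2 liver-labelled peaks (scores 19 and 18) both lay inside the last of these, a peak of 7865 bp. Wrn, a helicase, held 1 peak in each list at its upper boundary, with scores of 19 and 13. In HEPA1-6 only, Dna2, a nuclease and helicase, held 4 peaks with scores of 22, 10, 19 and 11, and Rbbp8, which starts resection, 3 peaks with scores of 21, 18 and 15. The helicase gene Blm held a single peak of 260 bp with a score of 13 (rank 89.9%), the weakest rank among the best peaks of the 29 genes.

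Of the 5 damage signalling genes, 2 held a peak in both lists and 3 in neither. The kinase genes Atr, Chek1 and Chek2 held no peak in either list, and they make up 3 of the 8 repair genes without one. Atm (NCBI Gene 11920, chromosome 9, 53437122 to 53536828, minus strand), the kinase that responds to double-strand breaks, held a peak over its start in both lists. The HEPA1-6 peak spanned 53535962 to 53537761 (score 50, rank 9.43%), and the liver-labelled peak 53536346 to 53537644 (score 22, rank 48.3%). Both carried the strand of Atm but also reached Npat, which starts in the other direction. A second HEPA1-6 peak, 18.8 to 19.9 kb into the gene, scored 19. Trp53bp1, which shields ends from resection, held a HEPA1-6 peak of score 25 only where its end overlaps Tubgcp4, on the strand of that gene. Its liver-labelled peaks scored 13 each (rank 96.0%), 1 inside that peak and 1 on its own strand near the RefSeq start.

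End joining genes held a HEPA1-6 peak in 8 of 9 cases and a peak of both lists in 4. Parp1 (NCBI Gene 11545, chromosome 1, 180568891 to 180600999, plus strand), a sensor of DNA breaks that also serves the alternative form of end joining, was the most densely covered of the 37 genes in HEPA1-6. Its 6 HEPA1-6 peaks covered 62.1% of the gene, with scores of 30, 28, 48, 16, 31 and 34 in genomic order. Its 5 liver-labelled peaks covered 15.1%, with scores of 33, 20, 38, 21 and 20, and all 5 overlapped a HEPA1-6 peak. All 11 peaks carried the strand of the gene. The peaks at 180587531 to 180590197 had the same edges in either list (scores 48 and 21), the only such pair at a repair gene. The best liver-labelled peak (180585169 to 180586003, rank 16.2%) lay elsewhere, in a HEPA1-6 peak of 9481 bp.

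Lig3 (NCBI Gene 16882, chromosome 11, 82781109 to 82804274, plus strand), the ligase of alternative end joining, had peaks of 2 kinds. In HEPA1-6, 4 peaks with scores of 15, 17, 17 and 20 ran along the gene on its own strand. Another peak (82798872 to 82806624, score 52, rank 8.72%) covered its end on the opposite strand, where Rffl converges on it. Both liver-labelled peaks (scores 25 and 18) lay within the latter and carried the same opposite strand. The best-ranking Lig3 peak of both lists thus lay on the strand of its neighbour.

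Xrcc6 (NCBI Gene 14375, chromosome 15, 81987833 to 82040085, plus strand), which codes for the smaller subunit of the Ku heterodimer that caps broken ends, encloses Desi1 on the opposite strand. In HEPA1-6, 4 of its 5 peaks (scores 37, 16, 44 and 32) carried the strand of Desi1, and the last (score 42), which runs past the transcript end to Snu13, that of Xrcc6. Of its 5 liver-labelled peaks, with scores of 21, 21, 18, 17 and 27 in genomic order, 3 carried the strand of Xrcc6. The Xrcc6 start site in RefSeq lies 28.5 kb from the 5′ boundary of the gene, so the printed window is not at that boundary. The HEPA1-6 peaks with scores of 37, 16 and 44 ended before that start, the last at 20.9 kb. So did the liver-labelled peaks with scores of 21, 21 and 18, the last at 26.6 kb. The peak of score 44 sets the best HEPA1-6 rank at Xrcc6, 12.3%. Chromosome 15 held 2234 of the 14908 liver-labelled peaks, 2072 of the 28717 HEPA1-6 peaks and 3.55% of protein-coding genes, and its part in the count at Xrcc6 was not tested. Xrcc5, which codes for the other Ku subunit, held 3 peaks in HEPA1-6 only, inside the gene on its own strand, with scores of 13, 18 and 31.

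Prkdc, the kinase that Ku recruits, held 1 peak in each list at its lower boundary, shared with Mcm4. The peaks (15636045 to 15636824 and 15636821 to 15637743 on chromosome 16, score 28 in each list) overlapped by only 4 bp. The HEPA1-6 peak lay wholly in the flank, since the gene begins at 15637444. Lig4 (score 27), Xrcc4 (21) and Dclre1c (19) each held 1 HEPA1-6 peak and no liver-labelled peak. Xrcc4 is the scaffold of the ligase Lig4, and Dclre1c the nuclease that trims ends. All 3 peaks also touched another gene, and those at Xrcc4 and Dclre1c lay wholly in the flank, outside the gene body. Polq, the polymerase of microhomology-mediated joining, held no peak.

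Of the 4 Fanconi anaemia genes, whose pathway repairs crosslinked DNA, Fanci alone held a peak in both lists. Fanci (NCBI Gene 208836, chromosome 7, 79392312 to 79450266, plus strand) had all its peaks within the last 10 kb or beyond the end, where Polg converges on it. Its HEPA1-6 peaks scored 22, on its own strand, and 35, on that of Polg (79444861 to 79454547, rank 19.4%). Its 4 liver-labelled peaks (scores 14, 18, 14 and 34) all lay inside the latter, 3 of them on the strand of Polg. Fancd2, its partner in the clamp, held 1 HEPA1-6 peak of score 17. Fanca, a subunit of the ligase complex, held 3 with scores of 27, 27 and 18, and Fancm, a translocase, none.

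**Figure D4:**
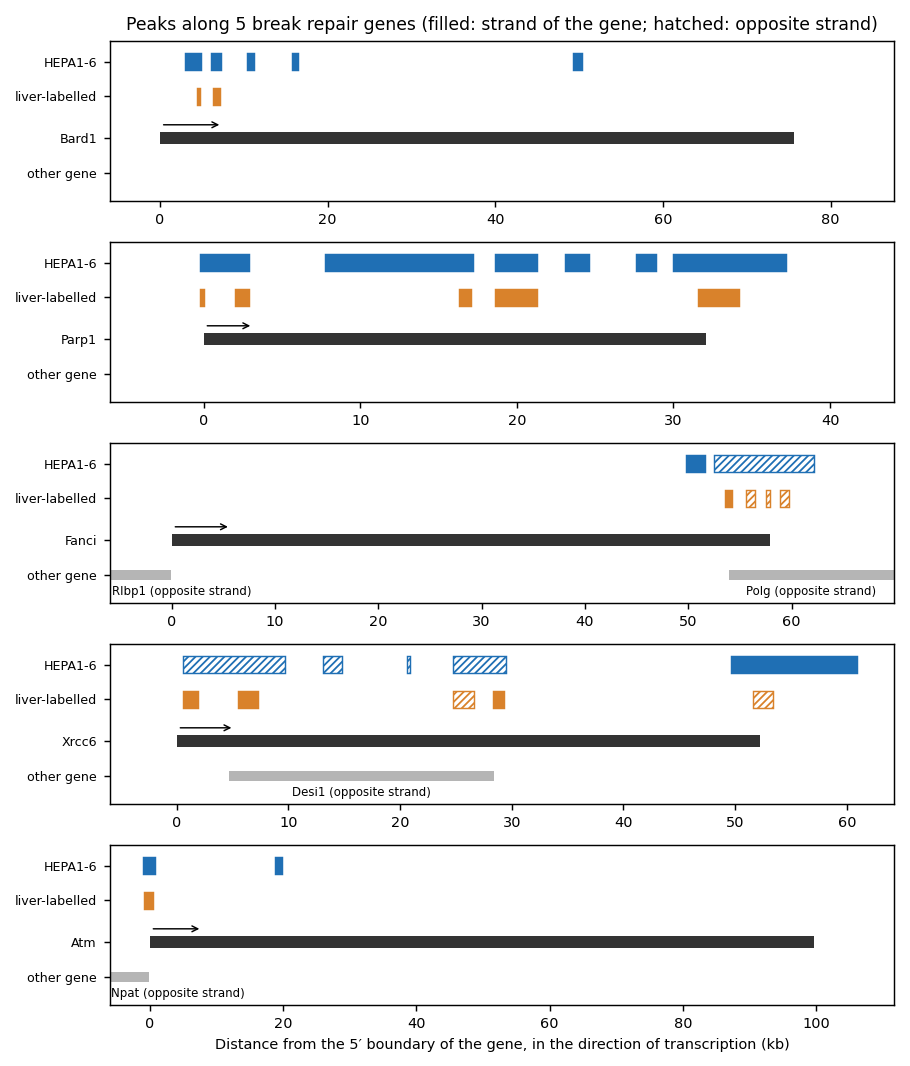
Peaks of HEPA1-6 (upper row) and the liver-labelled list (second row) along Bard1, Parp1, Fanci, Xrcc6 and Atm, with the gene as a black bar, other protein-coding genes in grey and the distance from the 5′ boundary of the gene in kb on the horizontal axis (scales differ between panels). Filled peaks carry the strand of the gene and hatched ones the opposite strand. At Bard1 and Parp1 all peaks are filled, whereas at Fanci 1 HEPA1-6 and 3 liver-labelled peaks over Polg are hatched.

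Many repair gene peaks could not be assigned to 1 gene. Of 33 liver-labelled peaks at repair genes, 19 (57.6%) also touched another gene with its 1 kb flanks, against 33.7% of all gene and peak pairs at protein-coding genes. In HEPA1-6 it was 23 of 73 (31.5%), against 26.9%. With peaks that touched no other gene, a choice made after seeing the data, 20 repair genes (54.1%) held a HEPA1-6 peak, against 30.0%. For the liver-labelled list 9 remained (24.3%, against 20.0%): Brca2, Bard1, Rad52, Nbn, Exo1, Wrn, Trp53bp1, Xrcc6 and Parp1. Both lists held such a peak at 6 genes (16.2%), Brca2, Bard1, Rad52, Nbn, Exo1 and Parp1, a share near the 16.4% of all protein-coding genes. The share with a peak in both lists, 43.2% (28.7 to 59.1%) against 27.8% with all peaks, thus came near the background once peaks shared with a neighbour were left out. No weighting by gene length was made for this share.

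**Figure D5:**
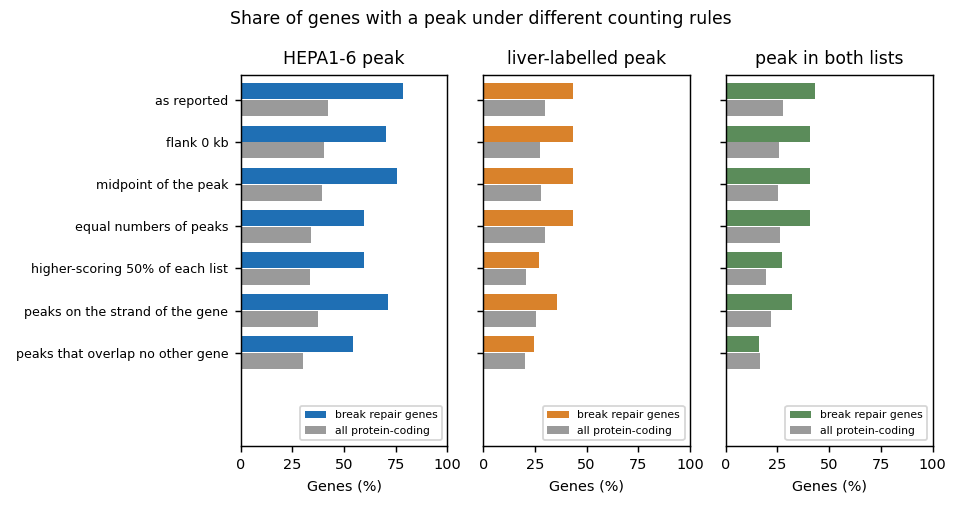
Percentage of genes (horizontal axis) with a HEPA1-6 peak, a liver-labelled peak or a peak in both lists under 7 counting rules (rows). Coloured bars are the repair genes and grey bars protein-coding genes, limited to genes with a promoter entry in the row on strand. Equal numbers of peaks leave the liver-labelled list as it is. With peaks that overlap no other gene, the share in both lists is 16.2% against 16.4%.

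The strand of the peaks followed the same division. For the genes with a known strand, 45 of 55 HEPA1-6 peaks (81.8%, against 87.2% over protein-coding genes) and 19 of 28 liver-labelled peaks (67.9%, against 83.5%) lay on the strand of the gene. All 35 HEPA1-6 and all 11 liver-labelled peaks that touched no other gene did so, where the backgrounds were 94.7% and 93.5%. Every opposite-strand peak at these genes therefore lay where another gene comes within 1 kb.

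Repair gene peaks overlapped between the lists at shares close to those of other genic peaks. Of the 73 HEPA1-6 peaks, 23 (31.5%, 22.0 to 42.9%) overlapped a liver-labelled peak, against 31.8%. Conversely, 32 of 33 liver-labelled peaks (97.0%, 84.7 to 99.5%) met one of HEPA1-6, against 88.9%, the exception being the Trp53bp1 peak near its start. In 28 of the 32 overlapping pairs the liver-labelled peak lay entirely within the HEPA1-6 peak. This was not counted over pairs at all protein-coding genes, so it is not a trait of repair genes. An edge fell on the same base in both lists in 10 pairs (31.2%), against 45.8% of pairs at protein-coding genes.

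Edges of peaks tended to fall on restriction sites. Within promoter windows, where sequence was at hand, 840 HEPA1-6 edges could be read, and 454 (54.0%, 50.7 to 57.4%) had the site of HindIII (AAGCTT), EcoRI (GAATTC), XbaI (TCTAGA), SspI (AATATT) or BsrGI (TGTACA) within 10 bases. The sites are palindromes, so both strands are covered. At positions 100 bases to either side the share was 0.715% and 0.490%. In the liver-labelled list it was 334 of 778 (42.9%, 39.5 to 46.4%), against 0.383% and 0.261%. Among repair genes, the left edge of the first Parp1 peak, the same base in both lists, had TCTAGA, and the right edge of the liver-labelled Brca1 peak TGTACA. Both can be found near the 5′ end of the printed windows. The other 3 of the 6 repair gene edges that could be read, at Xrcc6, at Trp53bp1 and at the right of the first liver-labelled Parp1 peak, had none of these sites. Whether DNA was cut with these enzymes is not given in the sources used here, and their part in the positions of the peaks was not tested.

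A further 62 genes of the same pathways were set beside these 37. A HEPA1-6 peak was present at 48 of them (77.4%, background 42.0%) and a liver-labelled one at 35 (56.5%, background 29.7%). All 35 had a HEPA1-6 peak too (background 93.6%), and 14 of the 62 held none (22.6%, background 56.1%). Their HEPA1-6 share was close to that of the 37 genes, 78.4%. They are shorter (median 18.1 kb), and their best peaks ranked higher, with median ranks of 16.1% (HEPA1-6) and 29.2% (liver-labelled), against 36.8% and 40.3%. In the top 10% of HEPA1-6 were 15 of 62 (24.2%, background 12.8%), and in that of the liver-labelled list 8 (12.9%, background 5.79%). Rmi1, a subunit of the complex that dissolves recombination intermediates, led with scores of 375 and 186. It was followed by Fance of the Fanconi ligase complex (291 and 107) and Sfr1, which assists the recombinase (131 and 103). The highest scores of the 37 genes themselves were 56 (HEPA1-6) and 43 (liver-labelled).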

How the data were processed

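R-loop peaks from 12 libraries in 6 groups of 2 were analysed as 1 deposited list per source. Each peak has a score, deposited by the authors as a whole number on an unstated scale. Per the file's peak names, peaks come from a merged immunoprecipitate against an input. The submitters' processing notes name CASAVA 1.8.2, cutadapt, Bowtie2, bedtools, SAMtools, MACS2 and mm10, which is GRCm38. The thresholds and the way strands were given are not given in the sources used here.

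Peaks were laid over RefSeq genes of GRCm38.p6, which carries no exons here, in Python 3.11.15 with pandas 2.3.3 and SciPy 1.17.1, and coordinates are 1-based. Gene strands and start sites came from the promoter table. Overlap counting was tested on simulated intervals. No test between sources was possible with 1 list each. Shares carry 95% Wilson intervals, which cover counting error only, beside the same share over all protein-coding genes. The members and lists were chosen with earlier results of these data known. Named in full were the 8 genes with the lowest sum of ranks in both lists, all genes with a peak in 1 list only and all without a peak, and the 3 of 62 further repair genes with the lowest sum. Promoters were printed for up to 5 genes, in that order, with a peak of both lists over the window, and the first 2 listed genes without a peak. Brca1, Brca2, Rad52, Xrcc3, Exo1, Wrn, Trp53bp1 and Prkdc, outside that rule, were added after their values were seen.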

Additional observations from a re-analysis of the deposited data

How the results depend on the processing

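Over 9 results and 38 alternatives, 27 values stayed within 1.5 times the reported count, or within the interval of the reported median, and 11 moved. The HEPA1-6 count of 29 genes was among the former in every alternative, from 20 to 29. In the higher-scoring 50% of each list, the liver-labelled count was 10 genes (27.0%, background 20.8%) and that of both lists 10 (27.0%, background 19.3%). There, 2 of 28 start sites held a liver-labelled peak (7.14%, background 12.3%). Of the fewer peaks this setting keeps, 12 of 38 HEPA1-6 peaks (31.6%, background 34.7%) and 11 of 11 liver-labelled peaks (100%, background 88.5%) overlapped one of the other list, shares close to those of all peaks. With peaks on the strand of the gene, the liver-labelled count was 10 of 28 genes (35.7%, background 25.3%) and that of both lists 9 (32.1%, background 21.9%), where peaks of any strand gave 12 and 12 over the same 28 genes. With peaks that touch no other gene, an alternative added after seeing the data, the same counts over all 37 genes were 9 and 6. These are 24.3% (background 20.0%) and 16.2% (background 16.4%). Requiring an overlap of 50% of both peaks left 9 shared HEPA1-6 peaks (12.3%, background 13.9%) and 9 shared liver-labelled peaks (27.3%, background 31.4%). Equal numbers of peaks brought the HEPA1-6 count to 22 (59.5%, background 34.0%) and left the liver-labelled list as it is. The count of both lists was then 15 (40.5%, background 26.0%). No paired analysis was possible because each source has 1 pooled list, whatever numbers its replicates share, and for the same reason no replicate was left out. The unknown depth limits every statement on a gene without a peak.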
